A study of Mus musculus with 26 samples.

Results

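Genes that are widely used as readouts of the transcriptional coactivators YAP and TAZ were followed through RNA sequencing of mouse motor neuron spheroids. They are Ccn1, Ccn2, Ankrd1, Axl, Amotl2, Myof, Arhgef17, Ajuba, Lats2 and Nt5e, chosen by symbol from a list of 10 among the 56941 genes of the deposited tables, and each symbol matched 1 row. The spheroids were grown from HBG3 (HB9::GFP), mouse embryonic stem cells that carry a fluorescent motor neuron reporter (genotype label: heterozygous blastocysts), so every group rests on 1 line, and the labels call the cells nerve cells. The stem cells were grown on a feeder layer and turned toward motor neurons with purmorphamine and retinoic acid, then with ciliary and glial cell line-derived neurotrophic factors, and were placed on a fibrin platform around day 8.

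The labels give 5 groups. In the mechanical arm, spheroids lay on a magnetic silicone array that was moved for 30 min daily at 4 Hz (actuated array, 4 libraries) or was never moved (static array, 4 libraries). In the biochemical arm the groups are labelled high intensity, low intensity and biochemical control (6 libraries each). The series' design text speaks of medium from optically stimulated or unstimulated muscle under other sample names, and no label ties these to high or low, so the groups keep their intensity names here. Nothing states whether replicates were separate cultures or differentiations, so p-values measure the spread between these libraries, which may be technical.

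YAP (Yap1) and TAZ (Wwtr1) do not bind DNA themselves. They enter the nucleus when cells spread, stretch or pull on a stiff matrix, or when the Hippo kinases MST (Stk3, Stk4) and LATS (Lats1, Lats2) are quiet, and they act there through the TEAD transcription factors. Active Hippo kinases phosphorylate both proteins and hold them in the cytoplasm. In the nervous system YAP and TAZ are best known from neural progenitors, glia and mesenchymal cells, and differentiated neurons usually hold little of them.

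TEAD factors recognise the M-CAT element, whose core is GGAATG, or CATTCC on the other strand. These letters were searched in the 250 bases before each start site in RefSeq's promoter table (build GRCm38.p6), where 8 of the 10 genes had an entry: Ccn1, Axl, Nt5e, Amotl2, Ajuba, Lats2, Ankrd1 and Myof. Of these, 5 held the core, and Ankrd1 and Ajuba held it at 2 positions. Among 32851 promoter windows of the same length, 12.6% held it at least once and 1.02% at least at 2 positions. These shares are per window, while the count of 5 is per gene, and the 8 genes had 9 windows. The stretches are shown because they hold the TEAD core near genes whose levels are described next, each printed 5′ to 3′ on the gene's own strand with the core in capitals. A match describes letters and is not a measured binding site.
Ankrd1, chr19:36119935-36120081, minus strand: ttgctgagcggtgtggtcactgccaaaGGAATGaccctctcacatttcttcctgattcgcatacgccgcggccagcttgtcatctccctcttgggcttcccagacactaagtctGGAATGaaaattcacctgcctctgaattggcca
Ajuba, chr14:54577793-54577874, minus strand: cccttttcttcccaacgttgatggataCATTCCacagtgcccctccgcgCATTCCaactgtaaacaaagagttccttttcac
Ccn1, chr3:145650056-145650115, minus strand: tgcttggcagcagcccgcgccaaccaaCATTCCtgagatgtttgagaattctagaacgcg
Axl, chr7:25788934-25788983, minus strand: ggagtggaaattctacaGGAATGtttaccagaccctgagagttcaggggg
Amotl2, chr9:102717712-102717771, plus strand: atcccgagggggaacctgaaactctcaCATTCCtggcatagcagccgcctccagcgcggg
In Ankrd1 the cores begin 210 and 123 bases before the start, in Ajuba 186 and 164, in Ccn1 103, in Axl 233 and in Amotl2 65.

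Depth set which libraries could be used. Of the 26 libraries, 21 had at least 1000000 counts on protein-coding genes and entered the tests: 5 biochemical controls, 5 at low intensity, 4 at high intensity, 3 on static and 4 on actuated arrays. Their totals were 1551334 to 3971348 counts in the biochemical arm and 7269276 to 13162635 in the mechanical arm. The 5 libraries left out were control replicate 4 (78.4% of its counts on rRNA genes), low-intensity replicate 6 (1536 counts in all), static-array replicate 3 and replicates 4 and 5 at high intensity. Low-intensity replicate 6 held no count of any of the 10 genes. The other 4 held 106 to 223 counts of them together, and tests with all 26 libraries are given beside some of the results they change. All 10 genes passed the low-count filter and were among the 14730 genes tested.

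The spheroids matched their label in part. Each of the 8 motor neuron markers listed for the analysis (Mnx1, Isl1, Isl2, Chat, Slc18a3, Lhx3, Prph and Slc5a7) was detected in every group, with summed levels of 369 to 863 CPM (counts scaled to a library total of 1000000). Markers of astrocytes or radial glia summed to 2113 to 4449 CPM and fibroblast markers to 169 to 2632 CPM, so the libraries were mixtures. In such bulk samples, fewer cells of a type and less RNA per cell cannot be told apart.

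Per length, in TPM (length-corrected transcript shares, scaled like CPM) over the 21 libraries, Amotl2, which encodes a scaffold that holds YAP at cell junctions, had the highest mean at 85.7 TPM. Axl, a receptor tyrosine kinase, followed at 42.0 TPM. The matricellular proteins Ccn1 and Ccn2 were at 18.7 and 17.4 TPM and the ankyrin repeat protein Ankrd1 at 15.3 TPM. Arhgef17, a guanine nucleotide exchange factor gene, was at 13.003 TPM, the kinase gene Lats2 at 9.66 TPM and the membrane repair protein gene Myof at 8.24 TPM. The LIM protein gene Ajuba at 2.50 TPM and the ectonucleotidase gene Nt5e (CD73) at 0.868 TPM were lowest. From here on, levels are CPM scaled by TMM (a factor per library that corrects for composition), which compare libraries and not genes. Relative to its mean, Ankrd1 varied most between libraries (coefficient of variation 127%), followed by Ccn2 (91.6%), and Amotl2 (20.0%) and Arhgef17 (19.0%) varied least.

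**Figure D1:**
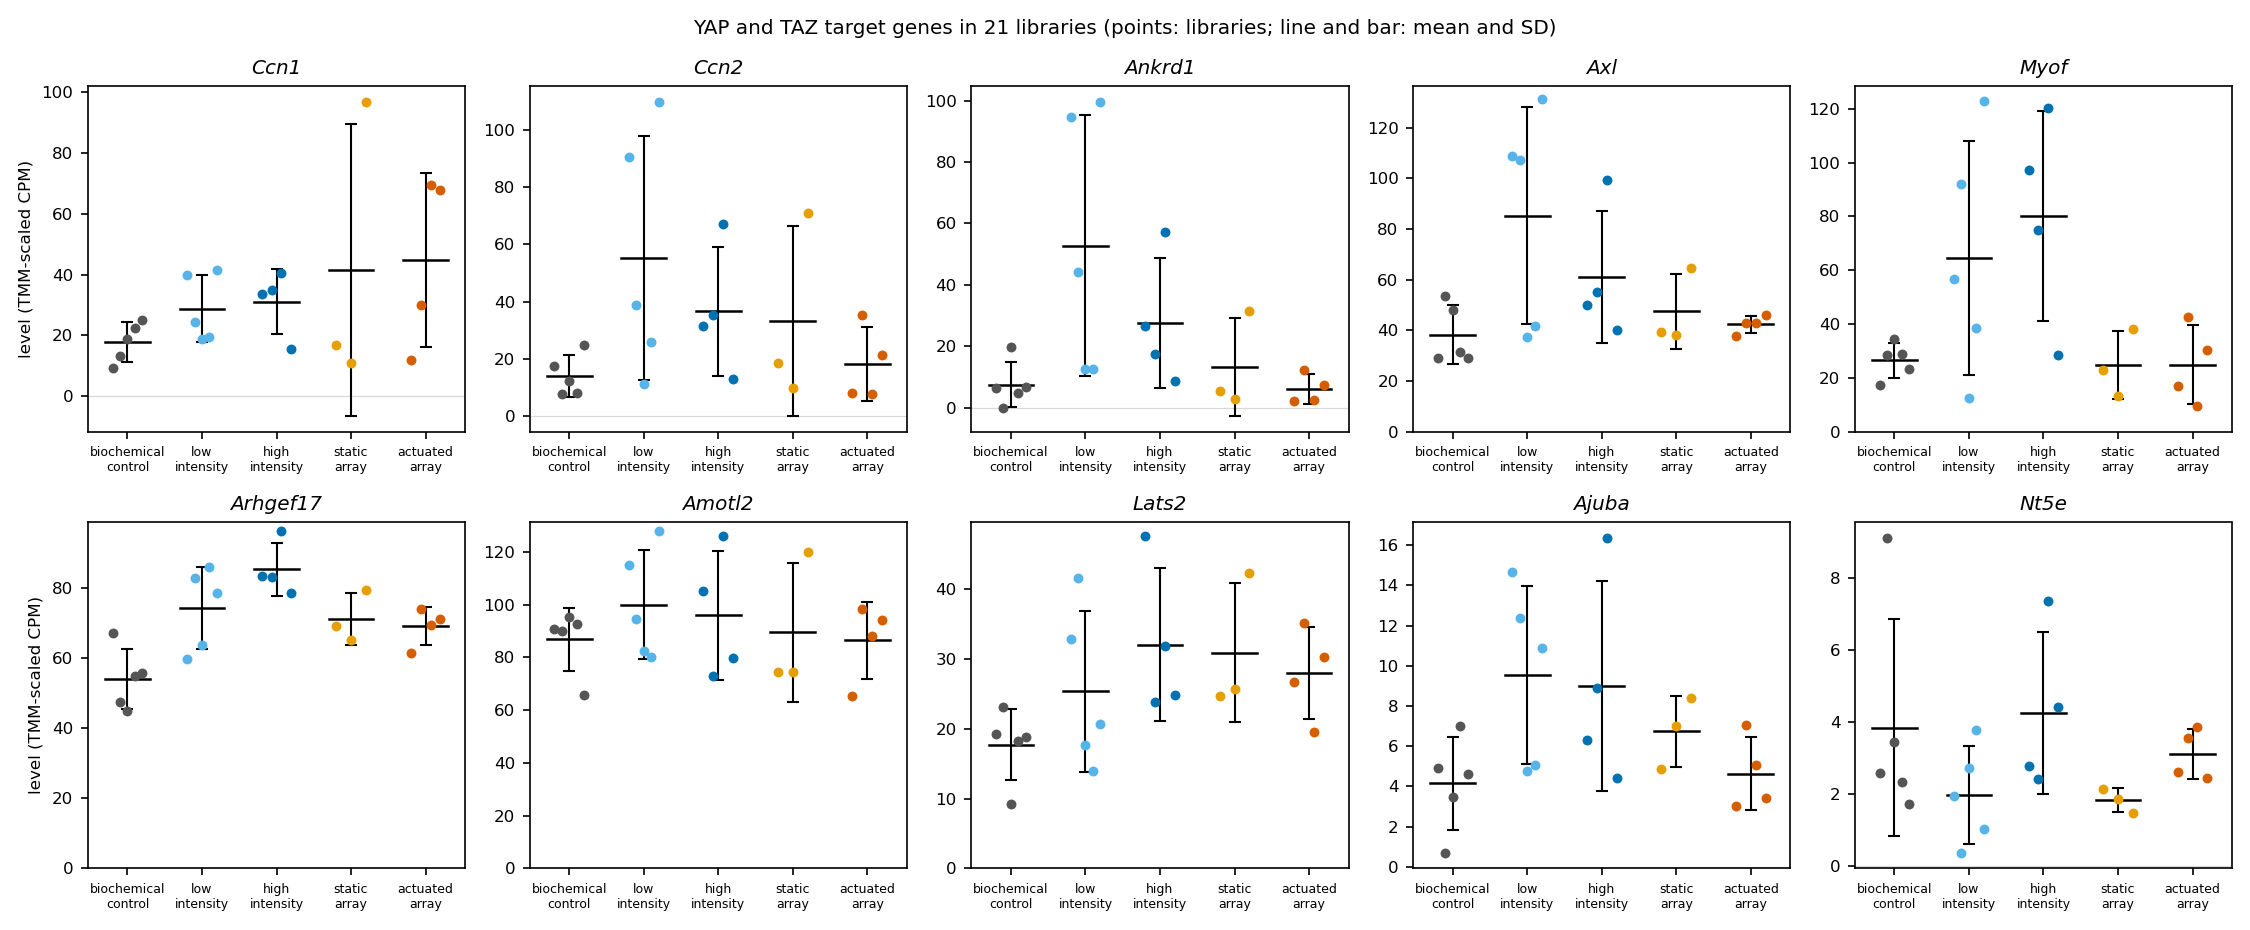
Level of each target gene (vertical axis, TMM-scaled CPM) in the 5 groups, with 1 point per library and the mean and SD of each group in black. Ankrd1 and Ccn2 are spread widely at low intensity and Arhgef17 sits higher in the 4 high-intensity libraries than in the 5 controls.

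Ankrd1, a nuclear and sarcomeric protein induced by mechanical load in muscle, stood highest in libraries of the low- and high-intensity groups. It was at 94.6, 44.2, 12.6, 12.6 and 99.7 CPM in low-intensity replicates 1 to 5 and at 26.7, 17.4, 57.2 and 8.82 CPM in high-intensity replicates 1, 2, 3 and 6. The controls were at 6.33, 0, 19.6, 4.68 and 6.67 CPM in replicates 1, 2, 3, 5 and 6. Low-intensity replicates 1 and 5 stood far above every control, while replicates 3 and 4 lay under control replicate 3, so the groups overlapped. Control replicate 2 had no Ankrd1 count, which allows up to 0.893 CPM of the raw total, without TMM scaling and for counting error only. The log2 fold change over control was 2.85 at low intensity (SE 0.77, edgeR unadjusted p 0.00114, adjusted p 0.0683) and 1.88 at high intensity (SE 0.80, unadjusted p 0.0278, adjusted p 0.244). Neither passed the threshold of 0.05 on the adjusted p.

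Ccn2, the secreted protein once named CTGF and a direct YAP target, had a like order of libraries. Low-intensity replicates 1 to 5 held 90.5, 39.0, 11.2, 25.9 and 109.9 CPM, and high-intensity replicates 1, 2, 3 and 6 held 31.5, 35.3, 67.0 and 12.9 CPM. Controls ranged from 7.71 to 24.9 CPM with a median of 12.3 CPM. The lowest library of each medium group fell inside the control range and the others lay above it. The log2 fold change was 1.96 (SE 0.60, unadjusted p 0.00312, adjusted p 0.110) at low and 1.34 (SE 0.63, unadjusted p 0.0431, adjusted p 0.294) at high intensity (edgeR).

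Ccn1, the related protein once named CYR61, differed less between these groups. It was at 17.8 ± 6.55 CPM (SD, n = 5) in controls, 28.8 ± 11.1 CPM (n = 5) at low and 31.1 ± 10.7 CPM (n = 4) at high intensity. The 95% intervals of its log2 fold change ran from -0.34 to 1.77 at low and from -0.30 to 1.91 at high intensity and included 0.

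Axl, whose product is the receptor of the ligand Gas6, was at 109.0, 107, 37.5, 41.7 and 131 CPM in low-intensity replicates 1 to 5 and at 29.3, 53.6, 48.1, 31.3 and 29.3 CPM in the controls. Replicates 1, 2 and 5 lay above every control and replicates 3 and 4 within the control range. Low intensity gave 1.17 on the log2 scale (SE 0.30, unadjusted p 0.000660, adjusted p 0.0604). High intensity, at 49.9, 55.1, 99.3 and 40.2 CPM in replicates 1, 2, 3 and 6, gave 0.67 (SE 0.32, unadjusted p 0.0455, adjusted p 0.301). With all 26 libraries edgeR gave 0.89 (adjusted p 0.911) at low and 0.28 (adjusted p 0.957) at high intensity.

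Myof, which encodes the ferlin myoferlin, stood at 97.1, 75.0, 120.2 and 28.7 CPM in high-intensity replicates 1, 2, 3 and 6. Controls held 17.3 to 34.6 CPM, and the lowest high-intensity library, replicate 6, was within that range. The log2 fold change was 1.60 (SE 0.48, unadjusted p 0.00277, adjusted p 0.107) at high intensity and 1.30 (SE 0.46, unadjusted p 0.00963, adjusted p 0.165) at low intensity. The low-intensity libraries ran from 12.6 to 122.8 CPM.

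Arhgef17 was the member that passed the test. It rose at high intensity, with 83.5, 83.1, 96.1 and 78.5 CPM in replicates 1, 2, 3 and 6 against 67.0, 47.3, 44.99, 54.7 and 55.6 CPM in control replicates 1, 2, 3, 5 and 6. The groups did not overlap. This was a log2 fold change of 0.66 (SE 0.14, adjusted p by edgeR 0.0416), a fold of 1.58 with a 95% interval of 1.30 to 1.92. The call was lost with all 26 libraries (log2 fold change 0.21, adjusted p 0.962), with limma voom (adjusted p 0.268), with only the groups compared (0.153) and with the replicate block (0.0739). It was also lost without any 1 of actuated replicates 1, 2 and 4, static replicates 1 and 2, control replicates 2, 3 and 5 and high-intensity replicates 1, 2 and 3, with adjusted p of up to 0.159 and log2 fold changes of 0.60 to 0.75 over the libraries left out in turn. At low intensity Arhgef17 was at 74.2 ± 11.7 CPM (n = 5), a log2 fold change of 0.45 (SE 0.13, adjusted p 0.0910). With all 26 libraries the low-intensity estimate was 0.24 (edgeR unadjusted p 0.519).

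Lats2, the Hippo kinase that YAP itself induces, held 47.7, 23.9, 31.9 and 24.8 CPM in high-intensity replicates 1, 2, 3 and 6 and 9.23 to 23.1 CPM in controls, again without overlap. Its log2 fold change was 0.86 (SE 0.30, unadjusted p 0.00917, adjusted p 0.157). Ajuba, an adaptor that restrains LATS kinases at junctions, had log2 fold changes of 1.23 (SE 0.48, unadjusted p 0.0171) at low and 1.11 (SE 0.50, unadjusted p 0.0374) at high intensity, with adjusted p of 0.209 and 0.279. It rested on few reads, 2 to 17 counts in the controls. With all 26 libraries the Ajuba estimates were 0.70 at low (edgeR unadjusted p 0.242) and 0.53 at high intensity (edgeR unadjusted p 0.379).

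Amotl2 was nearly level, with means of 86.4 to 100.02 CPM in the 5 groups. The 95% interval of its log2 fold change was -0.15 to 0.58 at low and -0.24 to 0.53 at high intensity. Nt5e had 1 to 38 counts per library. It was at 3.85 ± 3.01 CPM (n = 5) in controls, 1.97 ± 1.35 CPM (n = 5) at low and 4.24 ± 2.248 CPM (n = 4) at high intensity, with intervals of -2.27 to 0.27 and -1.14 to 1.41. Nt5e was therefore the member with a negative low-intensity estimate.

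Counted together, 1 of 10 members passed the adjusted threshold at high intensity, where 0.462% of the tested genes did (0.305% higher). At low intensity 0 of 10 passed with edgeR, against 0.597% of the tested genes. DESeq2 called 2 of 10 there (Ankrd1 and Axl), and it called 3.26% of the genes it gave an adjusted p. At an unadjusted p under 0.05, 7 of 10 were higher at high and 6 of 10 at low intensity, and 0 were lower. Of the tested genes, 8.67% and 8.57% were higher by that rule. Estimates were above 0 for 10 of 10 members at high and 9 of 10 at low intensity, beside 50.3% and 49.1% of the tested genes. The median log2 fold change of the 10 genes was 0.83 at high and 0.94 at low intensity, beside 0.0033 and -0.0083 for the genes tested. Both comparisons share their control libraries. With all 26 libraries 0 members passed the adjusted threshold at high intensity (0.0402% of the genes did), and the unadjusted counts were 3 and 4 (7.04% and 5.23% of the genes, in either direction), and without 1 library in turn they were 3 to 7 at high and 5 to 7 at low intensity. Arhgef17 and Lats2 were the 2 members whose high-intensity and control libraries did not overlap, where 2.07% of the tested genes were higher without overlap. At low intensity none of the 10 was, against 1.28%.

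**Figure D2:**
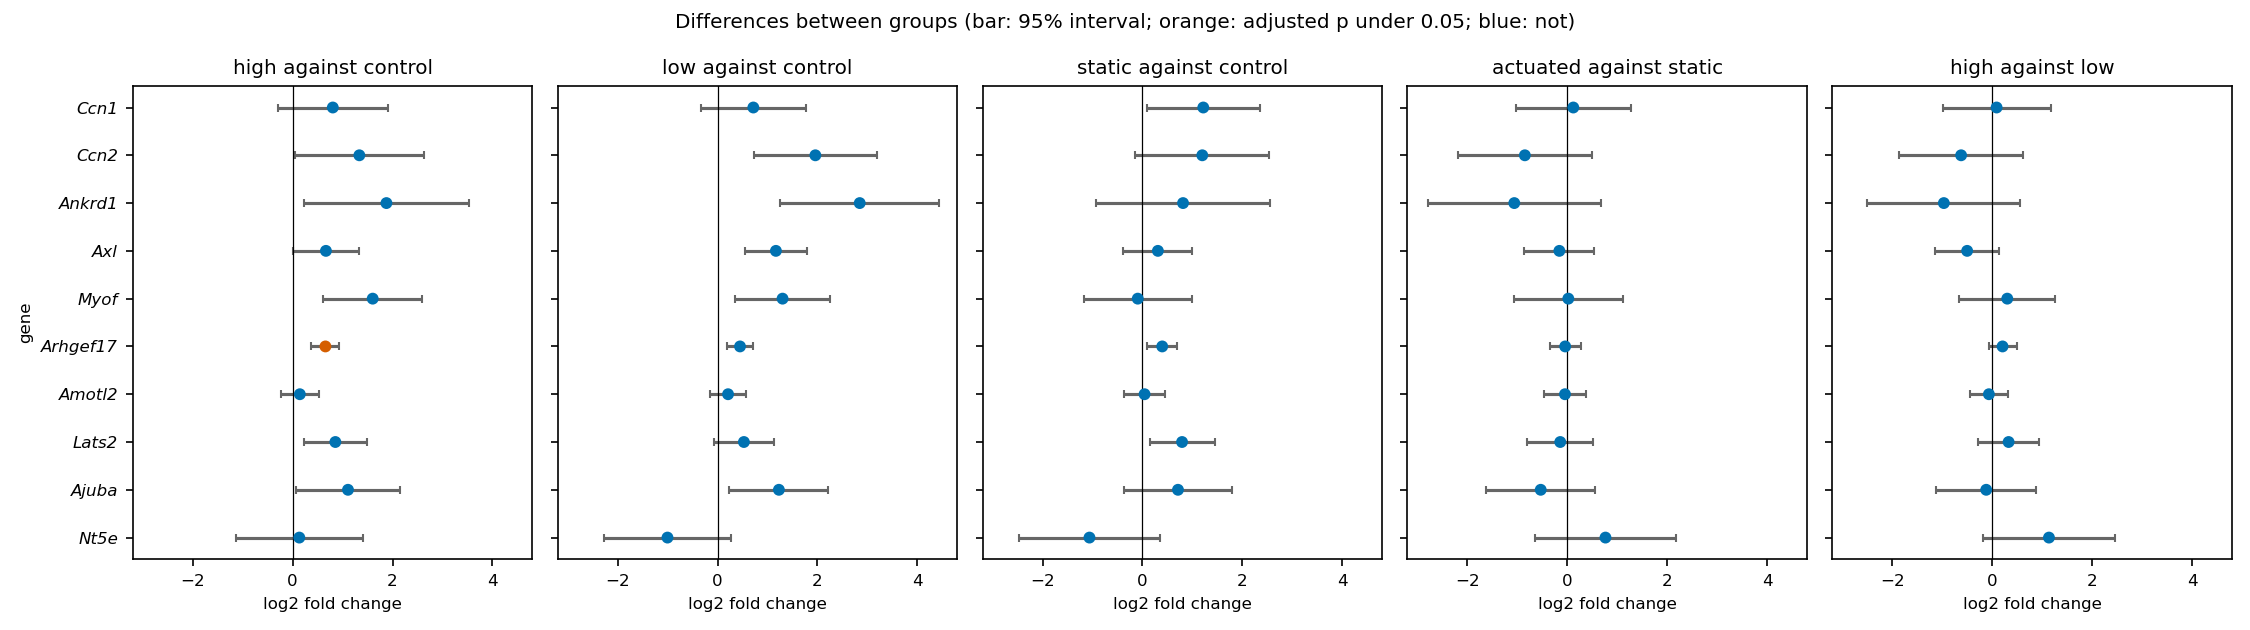
Log2 fold change (horizontal axis) of each gene (vertical axis) in 5 comparisons of the 21 libraries, with 95% intervals from edgeR. Orange marks an adjusted p under 0.05, reached by Arhgef17 for high intensity against control, and every interval for actuated against static arrays includes 0.

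High and low intensity were compared directly. None of the 10 genes differed at an adjusted p under 0.05 or an unadjusted p under 0.05, where 0% and 7.68% of the tested genes did. The estimates ran from -0.97 for Ankrd1 (95% interval -2.50 to 0.56) to 1.14 for Nt5e (-0.19 to 2.46), so differences of these sizes were not detectable for these genes. DESeq2 also called 0 of the 10. It gave an adjusted p to 5592 genes here and called 0.876% of them, and a gene without one could not be called. The narrowest intervals were those of Arhgef17, at -0.07 to 0.49, and Amotl2, at -0.45 to 0.32.

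Movement of the array addresses the mechanical question, since YAP and TAZ targets are textbook readouts of stretch. Moved and unmoved arrays differed in no member at an adjusted p under 0.05, nor in any of the 14730 genes (0%), and 0 of 10 had an unadjusted p under 0.05, beside 0.38% of the tested genes. Few genes of any kind thus reached a small p in this comparison. The 0 of 10 therefore does not show that movement left the members unchanged. DESeq2 and limma voom also called 0 of the 10, where they called 0.034% and 0% of the genes given an adjusted p. Ccn1 was at 12.01, 29.9, 69.5 and 67.8 CPM in actuated replicates 1 to 4 and at 16.7, 10.9 and 96.8 CPM in static replicates 1, 2 and 4. Ccn2 was at 8.22, 35.2, 7.95 and 21.4 CPM and at 18.7, 9.82 and 71.1 CPM in the same libraries. Ankrd1 was at 2.22, 12.4, 2.54 and 7.45 CPM on actuated and at 5.31, 2.75 and 31.6 CPM on static arrays. For Ccn1, Ccn2 and Ankrd1, static replicate 4 stood above every other array library. That library also held the most fibroblast (871 CPM), smooth muscle (783 CPM) and skeletal muscle (107 CPM) marker reads and the fewest motor neuron marker reads (546 CPM) of the 7 array libraries, and their part in the result was not tested.

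The log2 differences, actuated minus static, were 0.12 for Ccn1 (SE 0.56), -0.85 for Ccn2 (SE 0.65) and -1.06 for Ankrd1 (SE 0.84). Without static replicate 4 they were 1.70 (edgeR unadjusted p 0.00383, adjusted p 1), 0.37 and 0.65. That 1 library set the direction of Ccn2 and Ankrd1, and the log2 estimate of Ccn1 was 0.12 with it and 1.70 without it. The signs of Axl (-0.16), Amotl2 (-0.05), Arhgef17 (-0.04) and Lats2 (-0.14) turned positive without it as well (0.13, 0.22, 0.04 and 0.15). The best bounded members were Arhgef17, with a 95% interval of -0.35 to 0.26, and Amotl2, with -0.47 to 0.38. Nt5e was the member whose groups did not overlap, at 2.44 to 3.86 CPM on actuated and 1.48 to 2.15 CPM on static arrays (12 to 38 counts per library). Its log2 difference was 0.76 (SE 0.69, unadjusted p 0.277), and 2.1% of the tested genes were higher without overlap. Static replicate 3, left out for depth, had 27 counts of Nt5e, and with all 26 libraries the estimate was -1.70 (SE 0.96, adjusted p 1).

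Static arrays against biochemical controls gave the distance between the arms. No member passed the adjusted threshold, which 0.713% of the tested genes did, and 3 of 10 had an unadjusted p under 0.05 (6.1% of the tested genes were higher by that rule). These were Ccn1 (log2 fold change 1.22, SE 0.55, adjusted p 0.350), Arhgef17 (0.40, SE 0.14, adjusted p 0.215) and Lats2 (0.79, SE 0.32, adjusted p 0.276). Without static replicate 4 their unadjusted p values were 0.492, 0.0614 and 0.157, and the estimate of Ccn1 was -0.35. Lats2 did not overlap, at 24.6 to 42.4 CPM on static arrays against 9.23 to 23.1 CPM in controls, where 4.52% of the tested genes were higher without overlap. Between the arms, depth and handling cannot be told apart from the array itself. Marker sums differed too. Astrocyte or radial glia markers summed to 3379 to 4130 CPM on static arrays and 2153 to 2998 CPM in controls. Neural crest or glia markers summed to 86.7 to 238 and 29.3 to 56.8 CPM. The motor neuron and fibroblast sums overlapped. The part of cell makeup in this comparison was not tested.

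The actuation effect was then set against the high-intensity effect in 1 interaction term, since the series' title sets mechanical against biochemical effects. No member and no gene passed the adjusted threshold (0%) with edgeR, and DESeq2 called 0 members and 5 genes. At an unadjusted p under 0.05, 6 of 10 members had a lower effect of actuation than of high intensity (Ankrd1, Ccn2, Myof, Ajuba, Lats2 and Arhgef17), beside 3.73% of the tested genes. The difference of log2 effects was -2.94 for Ankrd1 (SE 1.16, adjusted p 0.681), -2.19 for Ccn2 (SE 0.91, adjusted p 0.707) and -0.70 for Arhgef17 (SE 0.20, adjusted p 0.631). Static replicate 4 weighed here too: without it the differences were -1.24, -0.97 and -0.62, and 1 of the 6 members kept an unadjusted p under 0.05. Without high-intensity replicate 3, 2 of the 6 did. Without control replicate 2 or high-intensity replicate 6 Axl joined the 6. The actuation effect was therefore not shown to differ from that of high intensity for any of the 10.

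For none of the 10 genes were 2 neighbouring groups, in the order of their mean levels, free of overlap. The share of all tested genes of which this holds was not computed. Low intensity had the highest mean for Ccn2, Ankrd1, Axl, Amotl2 and Ajuba, high intensity for Myof, Arhgef17, Lats2 and Nt5e, and the actuated array for Ccn1. The highest group mean exceeded the lowest by 8.58-fold for Ankrd1 and 3.92-fold for Ccn2, and by 1.16-fold for Amotl2.

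The genes that carry the signal to these targets were read from lists of Hippo pathway genes. Of 10 TEAD and coactivator genes, 7 passed the low-count filter. Yap1, Wwtr1, Tead1 and Tead2 were detected in each of the 21 libraries, and Vgll1 had no count in any of them. By edgeR, 1 of the 7 rose and 0 fell at high intensity, and the median log2 fold change was 0.81. At low intensity 1 rose, 0 fell, and the median was 0.68. Of all tested genes, 0.462% passed with edgeR at high and 0.597% at low intensity. DESeq2 called 2 of the 7 at high intensity (Tead1 and Yap1) and 3 at low intensity (Tead1, Wwtr1 and Yap1). It called 3.17% and 3.26% of the genes it gave an adjusted p. On actuated against static arrays 0 passed with edgeR or DESeq2, 0 had an unadjusted p under 0.05 by edgeR, and the median was 0.01, with the smallest p belonging to Vgll3, a TEAD cofactor (log2 difference -0.998, SE 0.72, unadjusted p 0.180).

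Tead1, which encodes a DNA-binding partner of YAP and TAZ, was the gene that rose at high intensity. It was at 123.9, 101.5, 100.02 and 81.7 CPM in high-intensity replicates 1, 2, 3 and 6 and at 57.5, 33.9, 46.8, 45.5 and 52.9 CPM in control replicates 1, 2, 3, 5 and 6. Every high-intensity library lay above every control. By edgeR it was higher by 1.10 on the log2 scale (SE 0.19, adjusted p 0.0357). Low intensity, at 74.5, 104, 58.7, 74.3 and 68.8 CPM in replicates 1 to 5, also lay above the controls, with a log2 fold change of 0.68 (SE 0.18, adjusted p 0.0615). The call ended when 1 of 7 libraries was left out: actuated replicate 1, static replicate 1, control replicates 3 and 5 and high-intensity replicates 1, 2 and 3 (adjusted p up to 0.109, log2 fold change 0.99 to 1.21). It also ended with all 26 libraries (adjusted p 0.187), with limma voom (0.268) and with the replicate block (0.0734).

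Wwtr1, the gene of TAZ, rose at low intensity. Its levels were 81.1, 65.3, 58.4, 54.9 and 63.7 CPM in replicates 1 to 5 against 43.2, 37.7, 28.8, 37.2 and 44.3 CPM in the controls, without overlap. By edgeR it was higher by 0.76 on the log2 scale (SE 0.17, adjusted p 0.0372), and by 0.32 (adjusted p 0.397) at high intensity. The direct difference between high and low intensity was -0.44 (SE 0.18, adjusted p 0.584) and did not pass. Leaving out any of 11 libraries ended the low-intensity call (actuated replicates 1 and 4, static replicates 1 and 2, low-intensity replicates 1, 2 and 5 and control replicates 1, 2, 3 and 5), with adjusted p of up to 0.120. The call also ended with all 26 libraries (adjusted p 0.787), limma voom (0.193), the replicate block (0.110), only the groups compared (0.0846) and thinning of each library to 1551334 counts (0.0807).

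Yap1, singled out after its values were seen because it names the pathway, was at 27.1 ± 4.96 CPM (n = 5) in controls, 43.2 ± 7.39 CPM (n = 5) at low and 47.6 ± 13.1 CPM (n = 4) at high intensity. By edgeR its log2 fold changes were 0.67 (SE 0.19, adjusted p 0.0748) and 0.81 (SE 0.19, adjusted p 0.0538), each short of the threshold. DESeq2 called both, with adjusted p of 0.0346 at low and 0.0117 at high intensity. Over the other settings, each with its own test, the adjusted p ran from 0.00252 to 0.865 at low and from 0.00789 to 0.715 at high intensity. Without 1 library in turn edgeR gave an adjusted p of 0.0563 to 0.218 at low and 0.0147 to 0.234 at high intensity. Its low-intensity libraries lay above every control, and high-intensity replicate 6, at 30.7 CPM, lay within the control range. Static and actuated arrays were at 37.8 ± 3.87 CPM (n = 3) and 37.5 ± 5.69 CPM (n = 4).

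**Figure D3:**
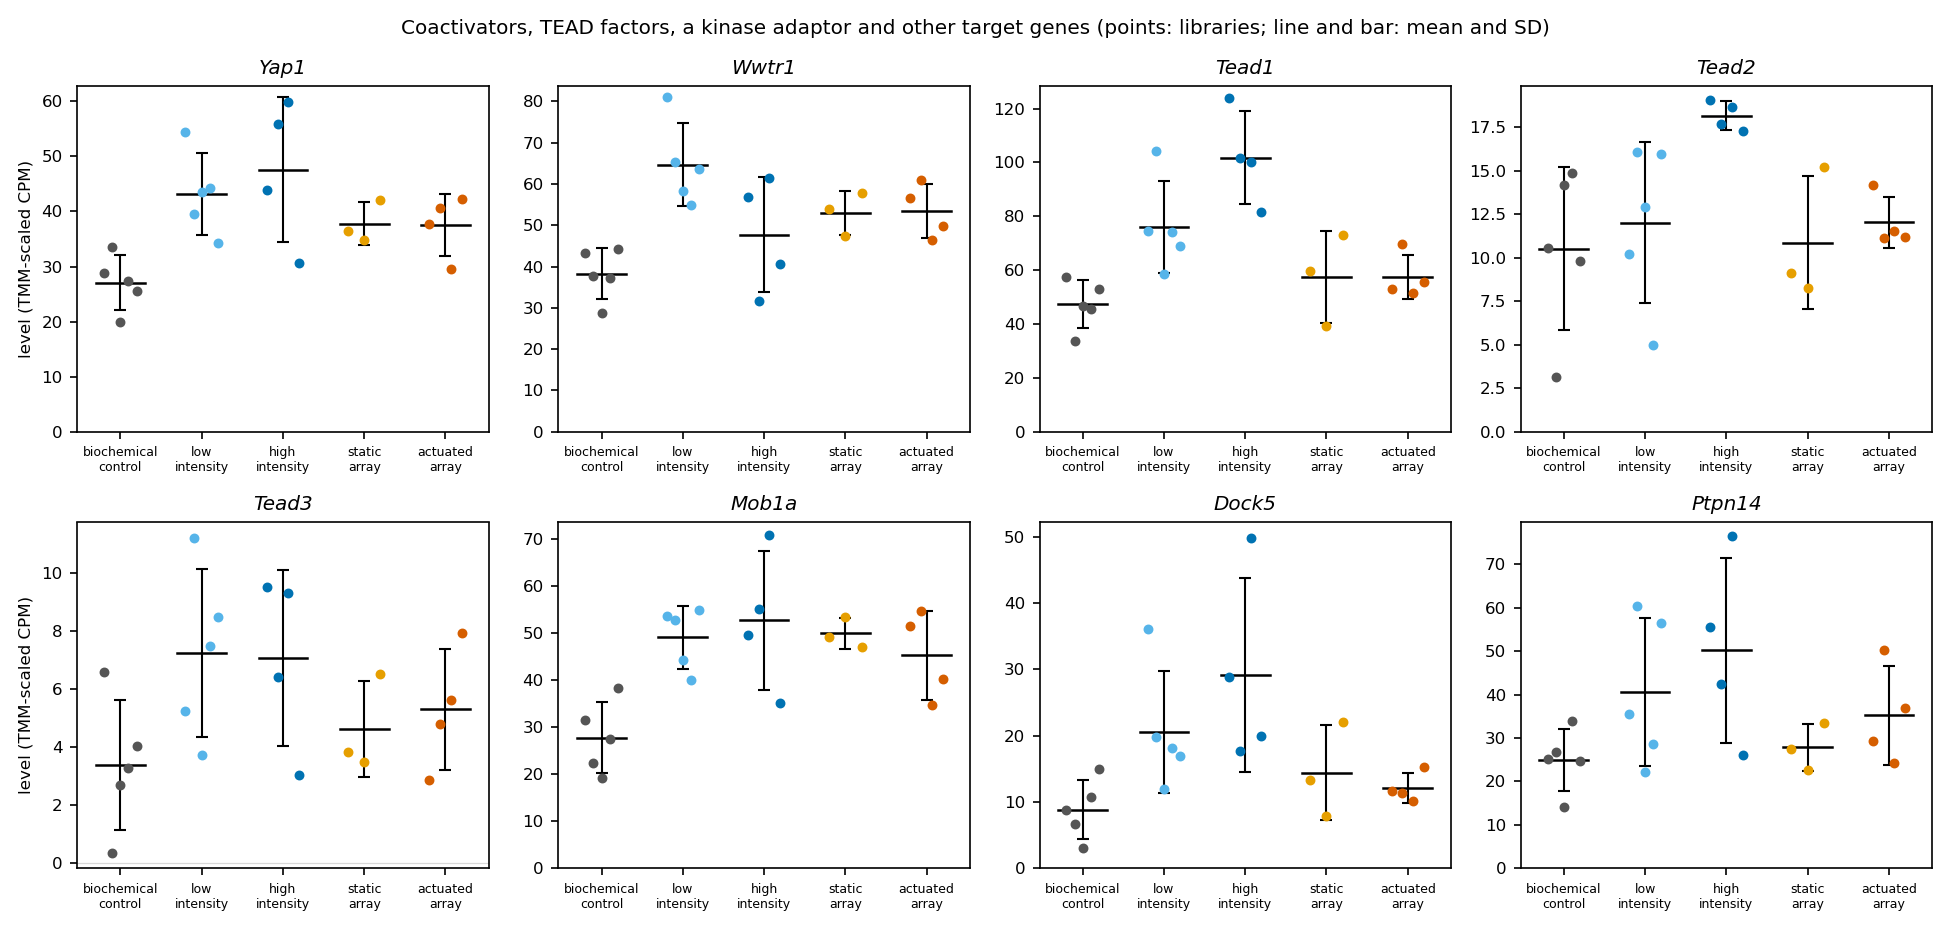
Levels (vertical axis, TMM-scaled CPM) of Yap1, Wwtr1, 3 TEAD genes, the LATS cofactor gene Mob1a and 2 further target genes, with 1 point per library and the mean and SD of each group. The 4 high-intensity libraries of Tead1, from 81.7 to 123.9 CPM, lie above the 5 controls, and the 5 low-intensity libraries of Wwtr1 lie above the controls.

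Of 20 genes of the Hippo kinase core and its regulators, 20 were tested, and by edgeR 1 rose at high intensity and 0 fell. At low intensity 0 passed with edgeR (3 higher and 1 lower at an unadjusted p under 0.05) and 1, Mob1a, with DESeq2. Of all tested genes, 0.462% passed with edgeR at high intensity, and 8.57% were higher at an unadjusted p under 0.05 at low intensity. DESeq2 called 3.26% of the genes it gave an adjusted p at low intensity. On actuated against static arrays 0 passed with either tool and 0 had an unadjusted p under 0.05 by edgeR. The median log2 fold changes were 0.06, 0.03 and 0.06 at high intensity, at low intensity and on the arrays. The gene that rose was Mob1a, a cofactor that activates LATS kinases. It was at 49.7, 54.98, 70.9 and 35.1 CPM in high-intensity replicates 1, 2, 3 and 6 and at 27.7 ± 7.53 CPM (n = 5) in the control group, higher by 0.91 on the log2 scale (SE 0.20, adjusted p by edgeR 0.0435). High-intensity replicate 6 lay under the highest control, control replicate 6 at 38.3 CPM, so these groups overlapped. Any of 11 libraries ended that call when left out (adjusted p up to 0.210), the same 11 that ended the call of Arhgef17. It also ended with all 26 libraries (adjusted p 0.228), limma voom (0.388), only the groups compared (0.179), the replicate block (0.0823) and thinning (0.0693). At low intensity Mob1a gave 0.82 (SE 0.20, adjusted p 0.0515 by edgeR and 0.00923 by DESeq2). On the arrays the smallest p belonged to Sav1, the scaffold of MST kinases, with a log2 difference of 0.40 (SE 0.31, unadjusted p 0.205).

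A further 13 published YAP and TAZ targets outside the 10 served as a comparison, and 12 passed the low-count filter. By edgeR 1 rose and 0 fell at high intensity, with a median log2 fold change of 0.31. At low intensity 0 passed with edgeR (2 higher and 0 lower at an unadjusted p under 0.05), with a median of 0.20, and 1, Dock5, passed with DESeq2. The shares over all tested genes were 0.462% passing with edgeR at high intensity and 8.57% higher at an unadjusted p under 0.05 at low intensity. DESeq2 called 3.26% of the genes it gave an adjusted p at low intensity. The gene that rose was Dock5, an activator of Rac, at 28.8, 17.7, 49.8 and 20.0 CPM in high-intensity replicates 1, 2, 3 and 6 against 8.84 ± 4.44 CPM (n = 5) in controls, without overlap. It was higher by 1.70 on the log2 scale (SE 0.39, adjusted p by edgeR 0.0468), and any of 16 libraries ended the call when left out (adjusted p up to 0.228). The exceptions were static replicate 4, low-intensity replicates 1 and 3, control replicate 6 and high-intensity replicate 6. The call also ended with limma voom (adjusted p 0.359), only the groups compared (0.153) and the replicate block (0.0823). At low intensity Dock5 had the smallest p of the list (log2 fold change 1.21, SE 0.38, adjusted p 0.115 by edgeR and 0.0461 by DESeq2). Actuated against static arrays gave 0 calls with edgeR or DESeq2, 0 genes with an unadjusted p under 0.05 by edgeR and a median of -0.01, with the smallest p for Ptpn14, a phosphatase that binds YAP (0.34, SE 0.34, unadjusted p 0.316).

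Pairs of members were compared within groups. On log2 CPM less the mean of each group, over the 21 libraries, 37 of the 45 pairs of members (82.2%) had a Pearson r above 0, with a median of 0.41. Over all pairs of the 14730 tested genes 50.3% had an r above 0, with a median of 0.0022. For the members with the 3 highest mean TPM, genes outside the 10 had the highest r: the nearest fellow member of Amotl2 (Axl) ranked 34 among 11775 genes by r, that of Axl (Myof) 117 and that of Ccn1 (Amotl2) 55. Of 65 relations computed (45 pairs of members, 20 of a member with a marker list), 15 pairs had an adjusted p under 0.05, each positive, by a permutation test of 100000 draws within groups. Of these 15, Ccn1 with Ccn2, Ccn1 with Amotl2 and Ccn2 with Axl did not pass by Spearman coefficient (permutation adjusted p 0.0608, 0.0837 and 0.0639). The share of all gene pairs that would pass this test was not computed. The closest pair was Ccn2 and Ankrd1, with r = 0.79 (permutation p 3e-05, adjusted p 0.00195) and a Spearman coefficient of 0.86 (permutation p 3e-05), and r = 0.76 without the 2 libraries farthest from the median of Ccn2. Ccn2 and Myof had r = 0.78 (permutation p 0.00069, adjusted p 0.00641), a Spearman coefficient of 0.77 (permutation p 0.00129) and r = 0.71 without the 2 farthest. Axl and Myof had r = 0.76 (permutation p 0.00034, adjusted p 0.00553), a Spearman coefficient of 0.76 (permutation p 0.00034) and r = 0.62. Ankrd1 and Ajuba had r = 0.77 (permutation p 0.00178, adjusted p 0.0124), a Spearman coefficient of 0.66 (permutation p 0.00464) and r = 0.72. Nt5e stood apart, with an r below 0 to 8 of the other 9 members.

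**Figure D4:**
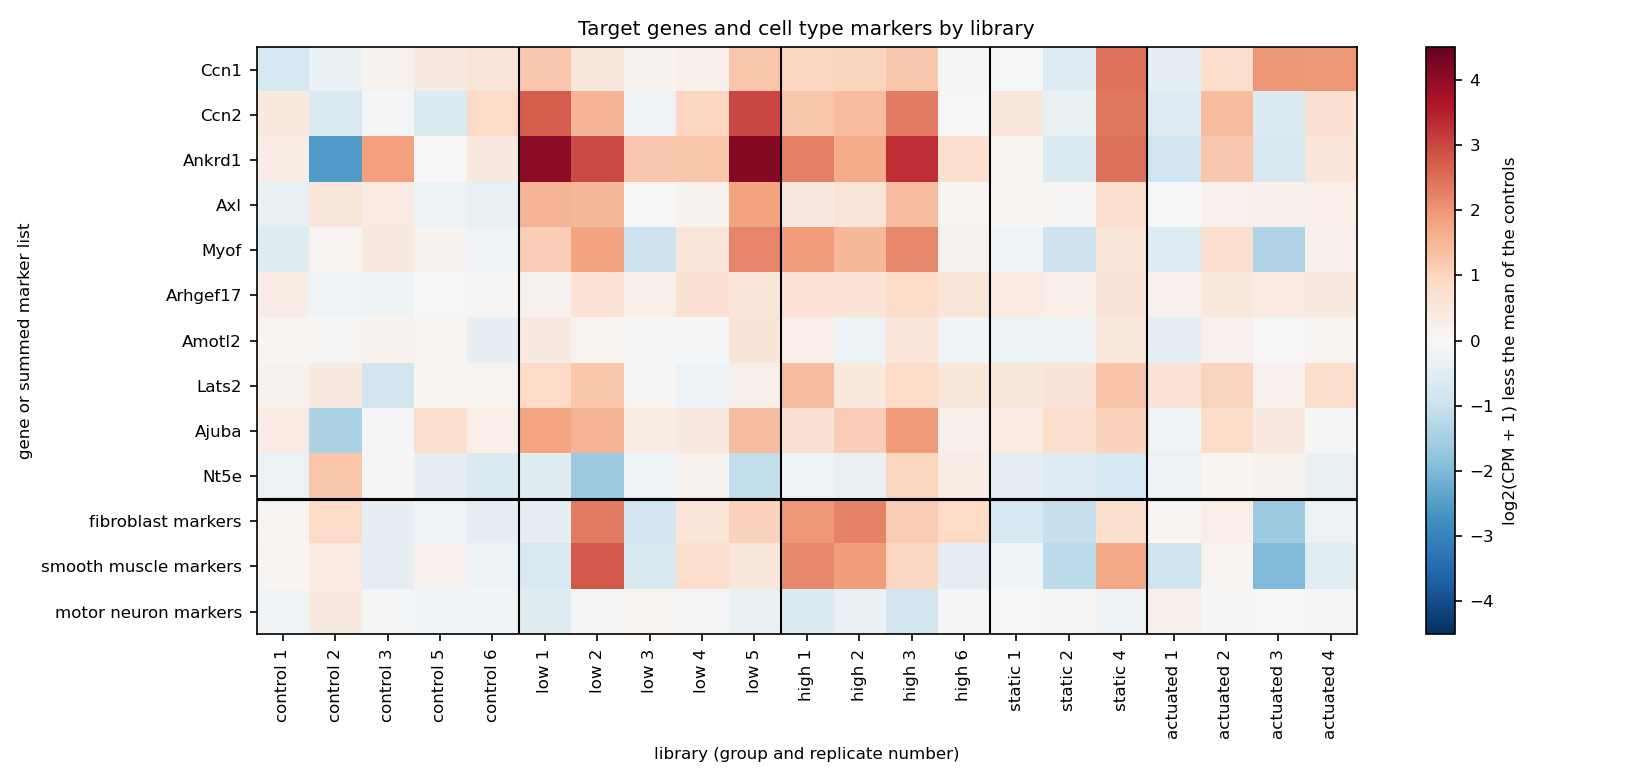
Colour gives log2(CPM + 1) less the mean of the controls for each of the 10 genes and for 3 summed marker lists (rows) in each of the 21 libraries (columns). Ccn2 is highest in low-intensity replicates 1 and 5, static replicate 4 and high-intensity replicate 3, while fibroblast markers are highest in low-intensity replicate 2 and high-intensity replicates 1 and 2.

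Summed levels of fibroblast and smooth muscle markers were higher on average in the low- and high-intensity groups than in controls, with ranges that overlapped those of the controls except for fibroblast markers at high intensity. The 10 fibroblast markers (such as Col1a1, Col1a2 and Pdgfra) were detected in every group, and their summed level was 967 to 2447 CPM at high intensity, 294 to 2632 CPM at low intensity and 388 to 959 CPM in controls. By edgeR or DESeq2 none of the 10 passed the adjusted test at high or low intensity. By edgeR 10 of 10 had an estimate above 0 at high intensity and 9 of 10 at low intensity, and 6 and 2 of them an unadjusted p under 0.05. Of all tested genes, 50.3% and 49.1% had an estimate above 0, and 8.67% and 8.57% were higher at an unadjusted p under 0.05. The 4 smooth muscle markers summed to 180 to 1082 CPM at high, 144 to 1609 CPM at low intensity and 177 to 307 CPM in controls, and 0 of the 4 passed with edgeR or DESeq2 (3 at high and 1 at low intensity had an unadjusted p under 0.05 by edgeR). Markers of astrocytes or radial glia averaged 2550 CPM in controls, 2794 CPM at low and 2521 CPM at high intensity. Of the marker genes, Cdh1, an epithelial cadherin, passed at high intensity (2.47 to 16.1 CPM against 0 to 2.01 CPM in controls, log2 fold change 3.09, SE 0.66, edgeR adjusted p 0.0420). That call also ended without any of the 11 libraries listed for Arhgef17 (adjusted p up to 0.124) and with limma voom (0.374), all 26 libraries (0.106), the replicate block (0.0823) and thinning (0.0631), and with only the groups compared Cdh1 was filtered out. Cdh1 was 1 of 4 epithelial markers, of which 3 had an estimate above 0 at high intensity and 1 an unadjusted p under 0.05 by edgeR. Their summed level was 54.98 to 192 CPM at high intensity and 11.5 to 177 CPM in controls, so these ranges overlapped. Motor neuron markers summed to 369 to 624 CPM at high intensity, 446 to 715 CPM at low intensity and 595 to 863 CPM in controls. Skeletal muscle markers were low, at 16.5 to 169 CPM at high, 6.45 to 141 CPM at low intensity and 8.44 to 66.4 CPM in controls, where Myod1, Myog and Tnnt3 had no count.

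Library by library the match was partial. Low-intensity replicate 1, with 94.6 CPM of Ankrd1 and 90.5 CPM of Ccn2, had 392 CPM of fibroblast markers, inside the control range. Low-intensity replicate 2, which held the most fibroblast markers at 2632 CPM, had 44.2 CPM of Ankrd1. Within groups, 1 of 10 members was related to the fibroblast sum at an adjusted p under 0.05, Myof with r = 0.67 (permutation p 0.01003, adjusted p 0.0385), a Spearman coefficient of 0.63 (permutation p 0.0137) and r = 0.57 without the 2 farthest libraries. The motor neuron sum was inversely related to 5 of 10 by the same rule: Ankrd1, Ajuba, Ccn2, Amotl2 and Ccn1. The share of all tested genes related to either sum was not computed, so these counts cannot be read as a trait of the 10. For Ankrd1 r was -0.81 (permutation p 8e-05, adjusted p 0.0026), the Spearman coefficient was -0.81 (permutation p 0.00026) and r was -0.82 without the 2 farthest. For Ccn2 r was -0.75 (permutation p 0.00016, adjusted p 0.00347), the Spearman coefficient was -0.79 (permutation p 8e-05) and r was -0.71. CPM are shares of 1 total, so a rise of one set of genes lowers others, and the part of cell makeup in the levels of the 10 genes was not tested.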

How the data were processed

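The authors deposited 2 tables with 1 column per library: estimated counts, held as integers and unscaled, and TPM values. Per the submitters' processing notes BWA 0.7.12-r1039, bedtools 2.25.0, STAR and Salmon and the builds mm10, hg19 and GRCm39 were used, with no roles stated. Libraries came from fragmented total RNA with rRNA-derived fragments cleaved, per the labels' protocols. No molecular identifiers are named, so counting limits cover counting error only, and reads shared between similar genes are uncertain.

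Counts were rounded and tested with edgeR 4.0.16 (R 4.3.3): 21 libraries with at least 1000000 protein-coding counts, 1 coefficient per group, filterByExpr, TMM scaling, quasi-likelihood F-test and Benjamini-Hochberg adjustment over the 14730 genes tested, with a threshold of 0.05. SE came from the fold change and F, and intervals are 95%. The fit was tested on simulated counts for high intensity against control, with the same spread for every gene. That simulation does not cover genes that vary more, such as Ankrd1. Relations used log2 CPM (prior count 2) and permutations within groups in Python 3.11.15 (numpy 2.4.6). Alternatives were DESeq2 1.42.0, limma 3.58.1 and those in the closing section. A count of 0 allows up to 0.228 to 1.93 CPM (3 counts) of the raw total, without TMM scaling, in the 21 libraries. The members, lists and tests were chosen with earlier results of these data known. Genes named beyond the 10 were those called in a list, otherwise the smallest p per list, and the 3 genes most like each of the 3 most abundant members.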

Additional observations from a re-analysis of the deposited data

Results flagged for a closer look

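Of 40 sets of 4 or 5 libraries of 1 group and 1 gene, 2 held a library far from the others, and chance gives about 1 in 20. These were Amotl2 in control replicate 6 (65.8 CPM, the other controls at 90.1 to 95.4 CPM) and Nt5e in control replicate 2 (9.11 CPM, the others at 1.74 to 3.46 CPM).

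Libraries left out for depth held more of some members than any biochemical control, on CPM of the raw total and with exact Poisson intervals that cover counting error only. High-intensity replicate 4 had 292 CPM of Amotl2 (71 of 243510 counts, 95% interval 228 to 368, highest control 87.1) and 320 CPM of Myof (78 counts, 253 to 400, highest control 30.7), and it had no count of 7 of the 10 genes. High-intensity replicate 5 had 72.7 CPM of Myof (36 of 495044 counts, 50.9 to 101). Static replicate 3 had 40.8 CPM of Lats2 (25 of 613344 counts, 26.4 to 60.2, highest control 19.6) and 44.0 CPM of Nt5e (27 counts, 29.0 to 64.0, highest control 7.74).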

How the results depend on the processing

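The 10 genes were retested under 12 other settings and without each of the 21 libraries in turn. For high intensity against control, 1 member called (0.462% of all genes tested) became 7 with no low-count filter (1.88% of all genes), 4 with limma on log2(TPM + 1) (15.8%), 4 on log2(TPM + 0.1) (15.6%), 0 with limma voom (0%), 0 with all 26 libraries (0.0402%), 0 with only the groups compared (0.13%), 0 with the replicate block (0.0136%), and 0 to 2 without 1 library (2 without high-intensity replicate 6, where Myof joined). For low intensity, 0 (0.597% of all genes) became 4 with no filter (1.77%), 2 with DESeq2 (3.26%), 7 and 7 on the TPM scales (36.9% and 37.6%) and 0 to 3 without 1 library (3 without low-intensity replicate 3, 1 without low-intensity replicate 4 or high-intensity replicate 3). Static against control went from 0 (0.713%) to 2 with no filter (1.23%) and to 1 and 1 on the TPM scales (7.41% and 7.77%), and the interaction from 0 (0%) to 3 with no filter (0.66%). Shares are of the genes given an adjusted p in that setting, 37248 with no filter. For the counts over all genes, high intensity went from 68 to between 0 and 2324, low intensity from 88 to between 1 and 5537, and static against control from 105 to between 2 and 1145. Actuated against static arrays ranged from 0 to 40, high against low from 0 to 126 and the interaction from 0 to 246. The cause was not tested.

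Correlations of same-numbered deviations ran from -0.22 to 0.18. Differently numbered libraries were not compared, so whether replicate numbers pair the libraries was not tested. With the replicate block, 2 genes were called at high intensity, 8 at low intensity, 36 for static against control and 1 for the interaction.

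Signs turned only for estimates that had not passed. For actuated against static, these were Myof (-0.0018 with no filter, -0.16 with all 26 libraries), Nt5e (-1.70 with all 26), Arhgef17 (0.0213 with all 26, 0.0127 and 0.0135 on the TPM scales), Amotl2 (0.0574 with voom, 0.0976 and 0.0983 on the TPM scales) and Lats2 (0.0412 with voom, 0.0167 after thinning each library to 1551334 counts, 0.0405 and 0.0449 on the TPM scales). For high against low these were Ccn1 (-0.0236 with all 26, -0.0150 and -0.0149 on the TPM scales), Amotl2 (0.23 with all 26, 0.10 with the replicate block), Arhgef17 (-0.0313 with all 26) and Ajuba (0.0195 after thinning, 0.0543 and 0.0923 on the TPM scales). For static against control these were Myof (0.13 with all 26, 0.30 and 0.37 on the TPM scales), Nt5e (1.56 with all 26) and Amotl2 (-0.0234 with the replicate block), and for the interaction Ccn1 (0.26 with voom) and Nt5e (-2.35 with all 26).

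Without 1 library in turn, signs turned for actuated against static in Ccn1 (-0.34 to 1.70), Ccn2 (-1.40 to 0.37), Ankrd1 (-1.68 to 0.65), Axl (-0.29 to 0.13), Amotl2 (-0.17 to 0.22), Myof (-0.38 to 0.47), Arhgef17 (-0.10 to 0.0430) and Lats2 (-0.28 to 0.15). The same held for static against control in Ccn1 (-0.35 to 1.69), Ccn2 (-0.00791 to 1.65), Ankrd1 (-0.88 to 1.52), Amotl2 (-0.21 to 0.18) and Myof (-0.53 to 0.23). It held for high against control in Amotl2 (-0.0100 to 0.25) and Nt5e (-0.25 to 0.74), for high against low in Ccn1 (-0.0620 to 0.32), Amotl2 (-0.22 to 0.0405) and Ajuba (-0.57 to 0.12), and for the interaction in Ccn1 (-1.15 to 0.88) and Amotl2 (-0.32 to 0.0680). Nt5e had 1 to 38 and Ajuba 2 to 94 counts per library, which limits both, and Ankrd1 had 1 library at 0.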

Other observations

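Among 11775 genes with a mean of at least 5 CPM, those most like Amotl2 over the 21 libraries, by Pearson r on log2 CPM less the mean of each group, were Ppfibp1 (0.88), Ndc80 (0.85) and Bub1b (0.81). For Axl they were Npm1 (0.90), Lrrfip1 (0.89) and Msn (0.89), and for Ccn1 Plekho1 (0.83), Sh3bp4 (0.78) and Dhrs3 (0.77). The libraries share depth and composition effects, and these values are a description without a test.

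The deposited count and TPM scales were related differently in the controls. The median gene's log2 ratio of CPM to TPM was 1.24 to 1.95 in control libraries, 0.74 to 1.00 at low intensity, 0.64 to 1.33 at high intensity, 0.82 to 1.14 on static and 0.70 to 1.13 on actuated arrays. For Arhgef17 the mean ratio of CPM to TPM was 8.52 in controls and 4.82 to 5.08 in the other 4 groups. On the TPM scales 36.9% and 37.6% of the tested genes passed at low intensity and 15.8% and 15.6% at high intensity, against 0.597% and 0.462% on counts with edgeR. The part of this ratio in that was not tested.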
